A study of Mus musculus with 12 samples.

Results

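Whether the siRNAs against Nostrill altered the response of IEC4.1 cells to IFN-γ was examined as the interaction of both treatments. It is the response with siR_Nostrill (siR_Nostrill + IFN-γ minus siR_Nostrill) minus the response with siR_Ctrl (siR_Ctrl + IFN-γ minus siR_Ctrl), on the log2 scale. A value of -1 means that the fold induction by IFN-γ was 2 times smaller with siR_Nostrill, and 0 means equal fold induction. All 12 of the 12 libraries enter it, with 3 in each of the 4 groups, and no measured value was used to choose them.

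IEC4.1 is labelled as a mouse intestinal epithelial line, wild type in every group. The groups were siR_Ctrl (a scrambled siRNA), siR_Ctrl + IFN-γ, siR_Nostrill (a pool of 3 siRNAs) and siR_Nostrill + IFN-γ. Both kinds of siRNA were given at 120 nM. By the methods, transfection lasted 24 h and IFN-γ (1 ng/ml) was present for 4 h, whereas each label states 24 h. Every group therefore carried transfected siRNA, and the contrast rests on a single cell line, a single dose and a single time. The study describes the libraries of a group as biological replicates. The labels name no culture or day for the 3 libraries of a group, and p-values measure the spread between these libraries.

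The siRNAs set the condition whose effect on the response was measured, and their sense strands are shown for that reason. Capitals mark bases 12 to 18, which lie opposite bases 2 to 8 (the seed) of the guide strand that binds the target.
Nostrill-1: ccugggaagaaGCAUUAAu
Nostrill-2: ccaccaggaacACACAAAu
Nostrill-3: gccuauaagucGUUCUAAu
The capitals differ between the 3 strands. Cells received them together, so effects of single siRNAs cannot be told apart.

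IFN-γ binds a receptor that activates the kinases JAK1 and JAK2, and the signal reaches GAS elements in promoters. It induces IRF1 and other regulators, which act on ISRE elements of later genes. The products include GTPases that attack intracellular vacuoles, the immunoproteasome and MHC class I, chemokines and inducible nitric oxide synthase (Nos2). STAT2 and IRF9 are parts of ISGF3, the factor of the type I interferon response. Nostrill is a long noncoding RNA known as a regulator of Nos2 transcription.

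Library totals ran from 17824306 to 19093204 reads over 15002 listed genes, and 11900 genes passed the filter on low counts. Nostrill itself was not analysed here. The labelled cell type was checked against marker lists. Of 20 epithelial markers, 11 were listed and 2 (Krt19 and Tjp1) had a mean FPKM above 1, while Krt8 reached at most 0.28 FPKM and Krt18 at most 0.1. Of 10 fibroblast and mesenchymal markers, 8 were above 1, with a median FPKM of 1679 for Vim and 216 for Col1a1. These levels go against the epithelial label, and the cells are called here by the name of their line only. The summed FPKM of these 10 was 2217 to 2435 in siR_Ctrl, 2563 to 2671 in siR_Ctrl + IFN-γ, 2127 to 2335 in siR_Nostrill and 2268 to 2408 in siR_Nostrill + IFN-γ. The epithelial sum was 7.66 to 17.98 over the groups, with overlap between them. Of 6 endothelial markers 3 were listed, and their sum was at most 0.19. Of 12 blood and immune markers 7 were listed. Their sum was 17.0 to 19.7 in siR_Ctrl, 16.8 to 20.3 in siR_Ctrl + IFN-γ, 21.5 to 25.2 in siR_Nostrill and 19.96 to 23 in siR_Nostrill + IFN-γ. It was carried by Cd68, Cd14 and Hba-a1, while Ptprc was at most 0.01. In resting siR_Nostrill this sum lay above both siR_Ctrl groups, the direction of the resting differences given below. It overlapped with that of siR_Nostrill + IFN-γ. The fibroblast and mesenchymal sum was separate and highest in siR_Ctrl + IFN-γ. In a bulk sample, fewer cells of a type and less RNA per cell cannot be told apart, and the part of cell makeup in the results was not tested.

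The gene list itself may have depended on a corner of the contrast. No gene was at 0 in all 3 siR_Nostrill libraries (0 genes), whereas 616 were so in siR_Ctrl, and 544 (siR_Ctrl) and 629 (siR_Nostrill) in the treated groups. The siR_Nostrill tables also had another column order, so the making of the table and the group cannot be told apart. Its part in the results was not tested. The median interaction was -0.06 over the 1203 tested genes with an average log2 CPM (reads scaled to library size) of up to 1, -0.01 over the 1389 from 1 to 3, 0.04 over the 3220 from 3 to 5, 0.03 over the 4356 from 5 to 7 and -0.07 over the 1732 above 7. Fold values of single genes are given only for those with a mean of at least 10 reads in each group, which 11398 of the tested genes had, whereas counts and medians of the lists cover all their tested members unless stated.

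With edgeR's quasi-likelihood test and Benjamini-Hochberg adjustment over the 11900 genes, 0 genes (0% of those tested) passed an adjusted p of 0.05 for the interaction. The lowest adjusted p was 0.43. Before adjustment 1277 genes had a p below 0.05. Of these, 562 (4.72% of the genes tested) had a higher response with siR_Nostrill and 715 (6.01%) a lower one, and these shares are the background for the gene groups below. DESeq2 also gave 0 genes after adjustment, with 1485 before it.

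More can be read from the intervals than from the calls. The margin is the distance from an estimate to either end of its pointwise 95% interval, and its median was 0.48 log2 units. For 8074 genes (67.8%) the whole interval lay between -1 and 1, so that a fold induction 2 times larger or smaller with siR_Nostrill lies outside it. For 25.02% it lay between -0.5 and 0.5. Precision followed the level of the gene. The median margin was 1.11 up to a log2 CPM of 1, 0.62 from 1 to 3, 0.45 from 3 to 5, 0.39 from 5 to 7 and 0.38 above 7. The share of genes with the whole interval within 1 unit went from 9.98% in the scarcest class to 79.0% in the most abundant. The interaction joins 4 group means, so its error holds the spread of all 12 libraries.

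**Figure D1:**
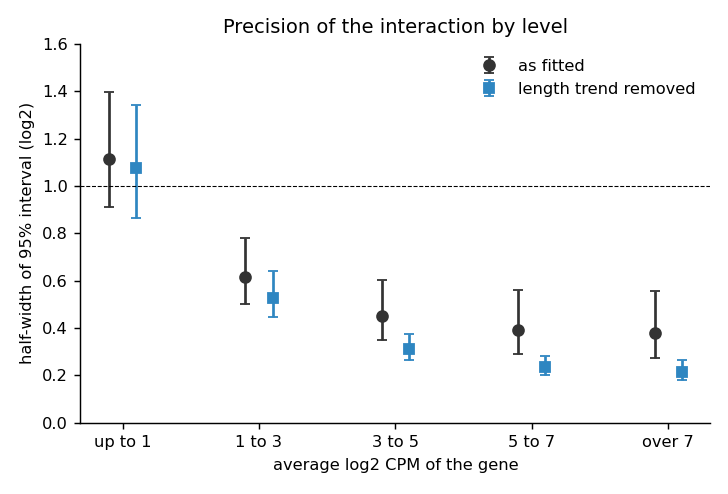
Median margin of the 95% interval of the interaction (log2 units, vertical) by average log2 CPM of the gene (horizontal), with bars from the first to the third quartile over genes. The margin was 1.11 in the scarcest class and 0.38 in the most abundant, and with the length trend removed 1.08 and 0.21. The dashed line marks 1.

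Much of that error followed gene length. The interaction and the log2 effective length of the gene had a Spearman correlation of 0.66 across 11557 genes, which are not independent replicates. The median interaction increased along deciles of genes by length, from -0.47 in the shortest (median 700 bases) to 0.44 in the longest (median 7475 bases). Deviations of single libraries from their own group mean were also related to length, with absolute correlations of 0.20 to 0.80. When the trend with length was taken out of each library, the correlation was 0.00, the median margin 0.29 and the share within 1 unit 85.7%. Still 0 genes passed, with 1096 higher (9.21%) and 1171 lower (9.84%) before adjustment. These shares are the background for counts with the length trend removed. Gene lists are therefore given in both forms.

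**Figure D2:**
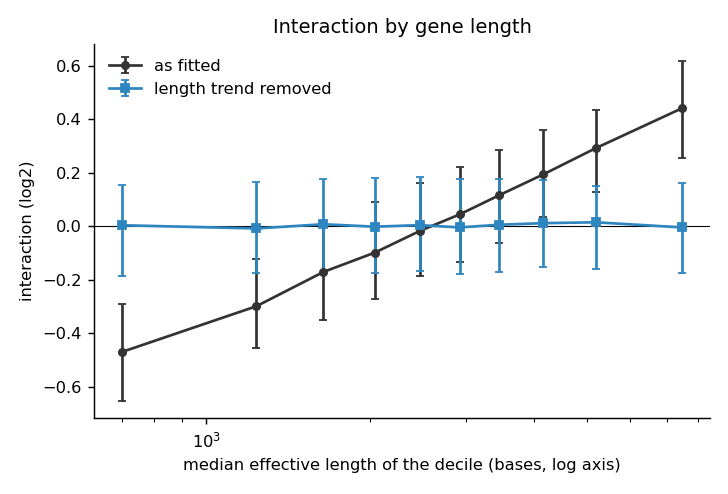
Median interaction (log2 units, vertical) for deciles of 11557 genes by effective length (bases, log axis), with bars from the first to the third quartile. As fitted, the median went from -0.47 to 0.44, and with the length trend removed it stayed near 0 in each decile.

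The genes that IFN-γ raised were chosen on the mean of both responses. This contrast is independent of the interaction only where the groups have equal spread, which was not tested. On that average 810 genes (6.81%) rose and 286 (2.4%) fell at an adjusted p of 0.05 in edgeR. Of the 810, 309 rose by over 1 log2 unit, and 221 of these had at least 10 reads in each group. Over the 221 genes the median response was 1.71 with siR_Ctrl and 1.51 with siR_Nostrill. Their median interaction was -0.08, with 127 below 0, against 0.01 over all genes tested. It was -0.12 to -0.04 with single libraries left out, and -0.04 without siR_Ctrl replicate 2. Before adjustment 30 of the 221 were lower and 10 higher, which is 13.6% and 4.52%, set against 6.01% and 4.72% of all genes. The median was -0.08 with the length trend removed as well, with 43 lower and 19 higher.

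A loss of 1 log2 unit of induction lay below the interval in 181 of the 221 raised genes (81.9%), close to the 82.0% of all genes tested, and the whole interval lay within 1 unit in 147 (66.5%, against 67.8%). These shares describe the precision and are not particular to the raised genes. The responses had a Pearson correlation of 0.95 across these genes, which were chosen on the mean of both. For 215 of the 221 the estimates were less than 1 unit apart. The 6 others were Isg15, Lipg, Ccl17, Apol9a, Apol9b and 9930111J21Rik1. Of the 144 genes raised by 1 to 2 units on average, 72 lay below 0, with a median of -0.00. Of the 56 raised by 2 to 4 units, 40 lay below 0, with a median of -0.24. Of the 21 raised by more than 4 units, 15 lay below 0, with a median of -0.16. In these classes the medians were -0.04, -0.18 and -0.25 with the length trend removed, so the order of the upper classes turned. In this top class the median response was 5.22 with siR_Ctrl and 4.91 with siR_Nostrill.

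**Figure D3:**
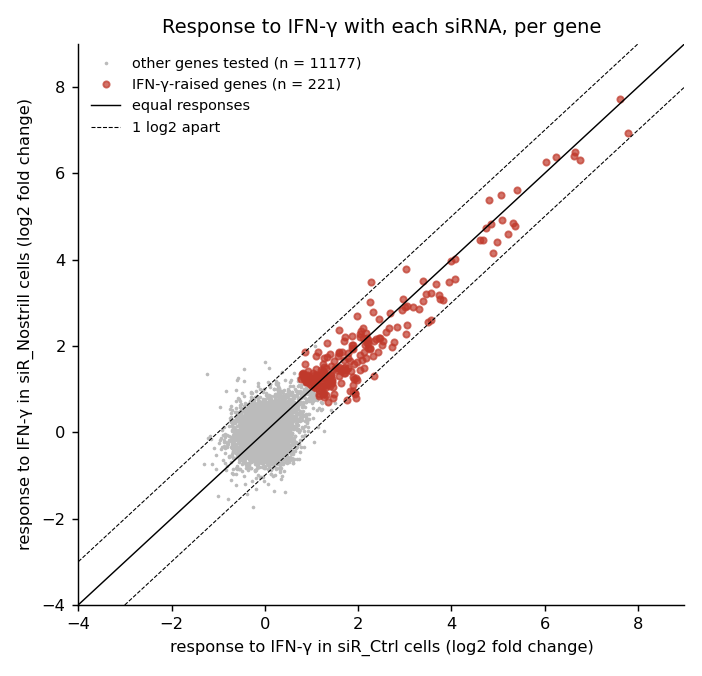
Response to IFN-γ (log2 fold change) in siR_Nostrill cells (vertical) against siR_Ctrl cells (horizontal), for genes with at least 10 reads in each group. Red points are the 221 IFN-γ-raised genes, grey points the other genes tested, the solid line marks equal responses and the dashed lines 1 log2 unit on either side. Of the raised genes, 215 lie between the dashed lines.

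The same genes can be followed library by library. For each library the median over the 221 genes of log2 CPM minus the siR_Ctrl mean was taken. It was -0.06 to 0.06 in siR_Ctrl and 0.13 to 0.14 in siR_Nostrill. With IFN-γ it was 1.58 to 1.64 in siR_Ctrl cells and 1.61 to 1.67 in siR_Nostrill cells. All 3 resting siR_Nostrill libraries lay above the siR_Ctrl libraries, while the treated groups overlapped. The resting difference enters the interaction with the opposite sign. The difference of responses of -0.11 therefore contains the resting difference and is not a separate observation from it. Group means were 0.00 (siR_Ctrl) and 0.14 (siR_Nostrill) at rest, and 1.61 and 1.64 with IFN-γ. At rest 142 of the 221 genes were above 0 in siR_Nostrill against siR_Ctrl, and with IFN-γ 137 were.

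**Figure D4:**
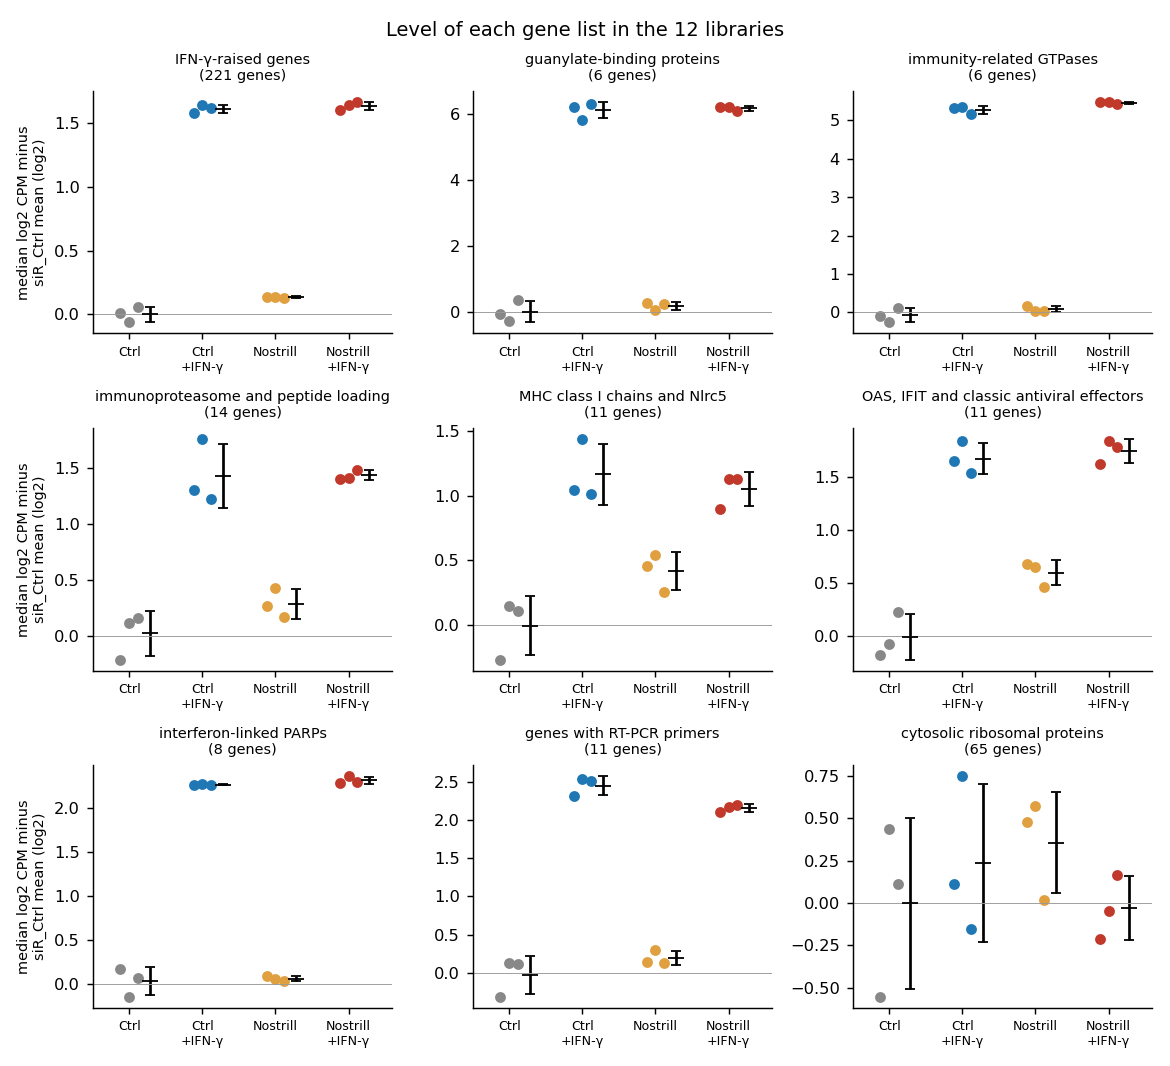
Level of 9 gene lists in the 12 libraries. Each coloured point is a library (median over the list's genes with at least 10 reads in each group of log2 CPM minus the siR_Ctrl mean, vertical), the black mark is the group mean and the bar its SD (n = 3). The antiviral list lay at -0.17 to 0.23 in siR_Ctrl and 0.47 to 0.68 in siR_Nostrill, and at 1.54 to 1.83 and 1.62 to 1.84 with IFN-γ.

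Promoters of raised genes were read for the letters of both elements, in RefSeq windows of GRCm38.p6, within 250 bases before the gene start. GAS was searched as TTCNNNGAA, which reads the same on both strands, and ISRE as GAAANNGAAA or its reverse complement. These can overlap each other. Of 168 raised genes with a window, 29 (17.3%) held GAS letters and 40 (23.8%) ISRE letters, against 8.13% and 3.46% of all 27025 genes with a window. The windows of 4 genes described below show both kinds, with the element in capitals and all within promoters on the strand of the gene.
Irf1, GAS, chr11:53769914-53769942, plus strand: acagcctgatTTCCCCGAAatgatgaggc
Igtp, GAS, chr11:58199501-58199529, plus strand: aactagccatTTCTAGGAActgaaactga
Psmb8, GAS, chr17:34198088-34198116, plus strand: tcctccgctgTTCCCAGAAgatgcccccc
Isg15, ISRE, chr4:156200871-156200900, minus strand: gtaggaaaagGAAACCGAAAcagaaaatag
The element lies 90 bases before the start of Irf1, 45 before Igtp, 97 before Psmb8 and 72 before Isg15. Igtp also holds ISRE letters 34 bases before its start, which begin within the stretch shown and are not marked. Isg15 holds further unmarked ISRE letters 78 and 66 bases before its start. Among raised genes the median interaction was -0.05 for the 19 with GAS letters only, -0.09 for the 30 with ISRE letters only, -0.22 for the 10 with both and -0.04 for the 109 with neither. The median resting difference was -0.02, 0.17, 0.23 and 0.12 in that order. A match is a description of letters and not of binding.

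The genes of the receptor, the JAKs and the STATs gave narrow limits. All 10 were tested, 0 had a p below 0.05 before adjustment, and for 10 of 10 the interval lay within 1 unit. Their median interaction was 0.08, with 3 below 0. It turned to -0.02 when siR_Ctrl replicate 1 was left out and to -0.01 when siR_Ctrl + IFN-γ replicate 2 was, and was 0.04 to 0.14 with each of the other libraries left out. They were long, with a median effective length of 4178 bases. With the length trend removed the median was -0.08 with 7 below 0, and 1 was higher and 2 lower before adjustment. Stat2, a part of ISGF3, gave -0.27 (-0.58 to 0.03) as fitted and -0.46 (-0.73 to -0.19) with the length trend removed. Jak1, a receptor kinase that did not pass for the average effect of IFN-γ, gave 0.29 (-0.27 to 0.85), and 0.05 (-0.17 to 0.27) with the length trend removed.

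The list of feedback inhibitors (SOCS genes, phosphatases and Pias1) lay mostly above 0. Only 5 of its 13 tested genes rose on average with IFN-γ, so most values are not those of induced genes. Of those raised, Socs2 (under 10 reads in some group), Cish and Ptpn1 lay above 0, and Socs1 and Socs3 below it. Of all 13, 9 lay above 0, and 1 was higher and 2 were lower before adjustment. The median interaction was 0.23, or 0.18 with the length trend removed. It was 0.12 without siR_Ctrl replicate 1 and 0.35 without siR_Nostrill replicate 3, the lowest and highest of the leave-one-out values. Socs1, which blocks JAK activity, had an interaction of -0.09 (-0.55 to 0.37) as fitted and 0.27 (-0.14 to 0.68) with the length trend removed. Socs3, a related inhibitor, gave -0.27 (-0.54 to -0.00), with treated levels of 211, 246 and 241 CPM in siR_Ctrl cells and 182, 192 and 195 in siR_Nostrill cells. Ptpn6, a phosphatase that acts on JAKs, was chosen after its values were seen, and gave -0.59 (-0.94 to -0.23). Socs4 had the largest estimate of the list, 1.35 (0.04 to 2.66). It rested on 13.3 CPM in siR_Ctrl replicate 1, against 5.43 and 5.34 in the other siR_Ctrl libraries, and was 0.77 to 1.69 with single libraries left out.

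Among interferon regulatory factors, 5 of 6 tested lay below 0 and 3 of 6 were lower before adjustment. The median was -0.38, -0.24 without siR_Ctrl replicate 1, and -0.23 with the length trend removed. Irf1 (chr11:53770014-53778374), the early factor whose promoter is shown above, had 84.4, 98.9 and 102 CPM in siR_Ctrl and 105, 117 and 106 in siR_Nostrill. With IFN-γ it reached 1133, 1188 and 1078 CPM in siR_Ctrl cells and 991, 1025 and 1050 in siR_Nostrill cells. Both pairs were separate, in opposite directions. The interaction was -0.35 (-0.63 to -0.06), so that a loss of 1 unit from a response of 3.57 lies outside its interval.

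Irf9 (chr14:55603985-55610030), the DNA-binding part of ISGF3, had another pattern. Its resting level was 13.6, 12.8 and 14.2 CPM in siR_Ctrl and 22.02, 18.04 and 20.6 in siR_Nostrill. With IFN-γ it was 64.0, 69.8 and 67.3 in siR_Ctrl cells and 70.1, 68.5 and 69.0 in siR_Nostrill cells. The resting groups did not overlap, and the treated groups did. The interaction of -0.54 (-0.81 to -0.26) thus came with a resting difference of 0.58 and a treated difference of 0.04.

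Irf7 (chr7:141263183-141266499), the master factor of type I interferon genes, was alike. It had 1.89, 2.85 and 2.999 CPM in siR_Ctrl and 5.96, 5.23 and 6.48 in siR_Nostrill. With IFN-γ it had 27.8, 38.0 and 26.1 against 32.3, 36.2 and 39.3. The resting siR_Nostrill libraries were higher and the treated groups overlapped, and the interaction was -0.96 (-1.54 to -0.38). The range without single libraries was -1.08 to -0.78.

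The guanylate-binding proteins, which coat pathogen vacuoles, were among the most strongly raised genes. All 9 tested rose on average, with median responses of 6.65 and 6.40, and 7 of 9 lay below 0 with a median of -0.14. This median was -0.40 without siR_Ctrl replicate 3 and -0.01 without siR_Ctrl replicate 2. It was -0.35 with the length trend removed, with 8 of 9 below 0. Only 6 of the 9 had at least 10 reads in each group. Over these 6 the median was -0.11 with 4 below 0, -0.37 without siR_Ctrl replicate 3 and 0.03 without siR_Ctrl replicate 2. With the length trend removed it was -0.26 with 5 of 6 below 0. Before adjustment 1 of the 9 was lower as fitted and 2 with the length trend removed, where the share of all genes was also larger. The interval lay within 1 unit for 7 of 9. Gbp2b gave 0.10 (-0.60 to 0.81) with responses of 7.61 and 7.72, and Gbp7 gave -0.14 (-0.83 to 0.55), or -0.41 (-0.92 to 0.09) with the length trend removed. Gbp3 (chr3:142560016-142573213) had 11.9, 10.4 and 15.7 CPM in siR_Ctrl and 16.2, 18.7 and 19.8 in siR_Nostrill, and 404, 412 and 385 against 365, 403 and 385 with IFN-γ. Its interaction was -0.58 (-0.99 to -0.18). Reads of these related genes could have been split between copies, so single members are uncertain.

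The immunity-related GTPases, which disrupt the same vacuoles, gave wide limits. Of 12 tested, 11 rose on average and only 6 had at least 10 reads in each group. Igtp (chr11:58199556-58207592), also called Irgm3, had 3.21, 3.47 and 6.38 CPM in siR_Ctrl and 8.001, 5.75 and 6.28 in siR_Nostrill. With IFN-γ it reached 946, 1105 and 848 CPM in siR_Ctrl cells and 773, 828 and 865 in siR_Nostrill cells. Both pairs overlapped. Responses of 7.79 and 6.94 gave an interaction of -0.85 (-1.52 to -0.18), with an adjusted p of 0.43 in edgeR and a range of -1.23 to -0.67 without single libraries.

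Irgm1, a regulator of the family, was pinned down most closely of the 6, with -0.02 (-0.25 to 0.22) at responses of 4.74 and 4.73. Irgm2 gave -0.44 (-0.89 to 0.01) and Ifi47 0.23 (-0.30 to 0.75). F830016B08Rik gave 1.61 (0.13 to 3.10) and 9930111J21Rik1 gave 1.20 (-0.95 to 3.34), and in F830016B08Rik siR_Ctrl replicate 1 stood at 12.8 CPM against 3.804 and 4.798. The median over all 12 was 0.24 and went from -0.65 to 0.42 without siR_Ctrl replicates 3 and 2 in turn. Over the 6 with at least 10 reads in each group it was 0.11, with 3 below 0. It went from -0.02 to 0.16 without the same libraries in turn. Each sign turned with a single library left out, so the list has no steady direction. With the length trend removed the median was 0.35 over the 12 and 0.27 over the 6. Tgtp1 and Tgtp2 are near-identical copies close to 0 at rest, and no fold is given for them.

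Genes of antigen processing lay mostly below 0. Of 14 immunoproteasome and peptide-loading genes, 11 lay below 0 and 4 were lower before adjustment, with a median of -0.36. Without siR_Ctrl replicate 1 it was -0.22, and without siR_Ctrl + IFN-γ replicate 2 -0.23. With the length trend removed the median was -0.16, 9 of 14 lay below 0, and 6 were lower and 1 higher before adjustment. These genes were short, with a median effective length of 1779 bases against 2689 over all genes tested. Psmb8 (chr17:34198195-34201454), a catalytic subunit of the immunoproteasome, had 8.25, 12.3 and 14.0 CPM in siR_Ctrl and 13.9, 16.7 and 12.8 in siR_Nostrill. With IFN-γ it had 92.7, 121 and 70.2 in siR_Ctrl cells and 61.8, 66.9 and 80.6 in siR_Nostrill cells. All these groups overlapped with their counterparts. The interaction was -0.76 (-1.45 to -0.07), and -0.40 (-0.71 to -0.09) with the length trend removed. Tap1, the peptide transporter, gave -0.59 (-1.14 to -0.04) and -0.61 (-1.06 to -0.15) in the same order. Psmb9, another catalytic subunit, gave -0.46 (-1.29 to 0.36) and 0.01 (-0.40 to 0.41). B2m, picked after its values were seen, lay on the other side, at 0.29 (-0.11 to 0.68) and 0.73 (0.35 to 1.10).

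All 11 tested MHC class I chains with Nlrc5 lay below 0 in both forms, with medians of -0.37 and -0.27. Nlrc5, the transactivator of class I genes, gave -0.02 (-0.56 to 0.51) as fitted and -0.44 (-0.75 to -0.12) with the length trend removed. H2-Q6, with the largest interaction under the naming rule, gave -0.91 (-1.99 to 0.18) and -0.78 (-1.65 to 0.08) in that order. H2-T23, which presents to NK receptors, was picked after its values were seen. It had 29.4, 48.0 and 47.1 CPM in siR_Ctrl and 67.7, 73.6 and 58.5 in siR_Nostrill, and 128, 187 and 126 against 112, 129 and 149 with IFN-γ. Here too the resting groups were separate and the treated groups overlapped. Over the list the median resting difference was 0.45 and the median treated difference -0.05. Reads of these chains can be shared among close copies, so single members are uncertain. Of MHC class II genes only 4 passed the filter, and their median was -0.26 with 4 below 0, or -0.24 with 2 below 0 when the length trend was removed. It was -0.08 without siR_Ctrl replicate 1 and -0.15 without siR_Ctrl + IFN-γ replicate 2. Only 3 of the 4 had at least 10 reads in each group. Over these 3 the median was -0.24 with 3 below 0 as fitted. With the length trend removed it was 0.02 with 1 below 0. Cd74, the invariant chain, gave -0.87 (-1.45 to -0.28) as fitted and -0.50 (-0.87 to -0.14) with the length trend removed.

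The antiviral effectors lay mostly below 0. Of 18 tested, 17 rose on average, 15 lay below 0, 3 were lower and 1 higher before adjustment, and the median interaction was -0.64, or -0.43 with the length trend removed. The median resting difference was 0.90 and the median treated difference 0.21. Only 11 of the 18 had at least 10 reads in each group, and over these the median interaction was -0.36 with 9 below 0, or -0.23 with 7 below 0 when the length trend was removed. Oasl2 (chr5:114896926-114912245), an OAS-like protein, had 11.9, 8.22 and 13.4 CPM in siR_Ctrl and 24.9, 21.8 and 25.2 in siR_Nostrill. With IFN-γ it had 151, 147 and 156 in siR_Ctrl cells and 197, 213 and 203 in siR_Nostrill cells. Both siR_Nostrill groups were above their controls, by more at rest, and the interaction was -0.67 (-1.10 to -0.24). Oasl1, its neighbour, which represses Irf7 translation, had 2.00, 2.18 and 2.84 CPM at rest with siR_Ctrl and 7.32, 4.999 and 4.46 with siR_Nostrill. Its responses were 1.15 and 0.11, and the interaction was -1.03 (-1.68 to -0.39).

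Ifit1, which binds foreign RNA caps, was chosen after its values were seen. Like Oasl2, it was higher in siR_Nostrill at rest (14.4, 13.3 and 14.0 against 5.68, 5.54 and 9.11 CPM) and with IFN-γ (67.0, 74.5 and 79.9 against 41.0, 44.9 and 43.4). The difference was 1.03 at rest and 0.78 with IFN-γ, and its interaction was -0.26 (-0.75 to 0.23). Samhd1, a dNTP hydrolase, also picked with its values known, differed in the other direction and gave 0.36 (0.10 to 0.61), with a resting level of 159, 137 and 138 CPM in siR_Ctrl and 111, 107 and 119 in siR_Nostrill and overlapping treated levels.

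Genes of ISG15 conjugation were split. Of 6 tested, 4 lay below 0 and 3 were lower before adjustment, with a median of -0.42, or -0.31 with 6 of 6 below 0 when the length trend was removed. Herc6 and Trim25, both ligases, lay above 0 as fitted, at 0.20 (-0.10 to 0.51) and 0.18 (-0.17 to 0.52). Isg15 (chr4:156199424-156200818), the ubiquitin-like protein itself, had 25.1, 43.7 and 52.1 CPM in siR_Ctrl and 96.9, 110 and 73.2 in siR_Nostrill. With IFN-γ it had 175, 285 and 151 in siR_Ctrl cells and 203, 234 and 257 in siR_Nostrill cells. Resting groups were separate and treated groups overlapped. The interaction was -1.03 (-1.90 to -0.16), and -0.52 (-0.83 to -0.20) with the length trend removed. Usp18, which removes ISG15, gave -0.75 (-1.38 to -0.12), and Uba7, its activating enzyme, -0.49 (-0.84 to -0.14). With the length trend removed Usp18 gave -0.55 (-1.2 to 0.10) and Uba7 -0.54 (-0.84 to -0.23).

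The nucleic acid sensors and the interferon-linked PARPs had medians near 0 in both forms. The sensors gave 0.13 over 10 genes, or -0.05 with the length trend removed and -0.00 without siR_Ctrl replicate 1. Before adjustment 2 were higher and 0 lower as fitted, and 2 higher and 1 lower with the length trend removed. The 2 higher as fitted were Cgas at 0.55 (0.08 to 1.01) and Mavs at 0.30 (0.02 to 0.58). Tlr3 gave 0.18 (-0.46 to 0.82) and Zbp1 -0.64 (-1.31 to 0.04) as fitted. With the length trend removed, Tlr3 gave 0.01 (-0.45 to 0.46) and Zbp1 -0.25 (-0.86 to 0.35). The PARPs gave 0.06 and -0.01 in the same order over 8 genes, and 0.00 to 0.12 with single libraries left out, 7 of which had the whole interval within 1 unit. Parp14 gave -0.16 (-0.70 to 0.38) as fitted and -0.56 (-0.81 to -0.31) with the length trend removed. Dtx3l, an E3 ligase partner of PARP9, gave 0.76 (-0.06 to 1.57).

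Chemokines were limited to the following ranges. Cxcl10, a ligand of CXCR3 on T cells, had 21.3, 23.8 and 31.4 CPM in siR_Ctrl and 44.7, 35.9 and 38.1 in siR_Nostrill, and 671, 708 and 589 against 816, 875 and 926 with IFN-γ. It was higher with siR_Nostrill in both states, and its interaction was -0.22 (-0.66 to 0.21) as fitted and 0.15 (-0.25 to 0.56) with the length trend removed. Cx3cl1, the membrane-bound ligand of CX3CR1, gave -0.07 (-0.33 to 0.19), among the narrowest limits. Ccl2, which attracts monocytes, gave 0.03 (-0.44 to 0.49) but 0.50 (0.16 to 0.84) with the length trend removed. Ccl25 had the largest interaction of the other chemokines under the naming rule. It gave -0.70 (-1.31 to -0.09), or -0.31 (-0.69 to 0.06) with the length trend removed. Over 12 tested chemokines other than CXCR3 ligands, Cx3cl1, Ccl2 and Ccl17 included, the median was -0.20 as fitted and 0.16 with the length trend removed, and their median effective length was 782 bases, so the direction turns with the handling of length. As fitted it was -0.34 without siR_Ctrl replicate 2 and -0.12 without siR_Ctrl + IFN-γ replicate 2.

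Nos2 (chr11:78920787-78960226), the inducible nitric oxide synthase, had nearly equal fold induction. It had 21.1, 12.03 and 17.83 CPM in siR_Ctrl and 11.5, 12.5 and 17.2 in siR_Nostrill. With IFN-γ it had 256, 217 and 339 in siR_Ctrl cells and 226, 213 and 205 in siR_Nostrill cells. The groups overlapped in the resting state, and with IFN-γ a single siR_Nostrill library lay within the siR_Ctrl range. The interaction was -0.03 (-0.70 to 0.64), and -0.18 (-0.61 to 0.25) with the length trend removed. A loss of 1 unit therefore lies outside the interval, and a loss of 0.5 does not. Over Nos2 and 8 tested genes of arginine and cofactor supply, 6 of 9 lay below 0, 2 were lower before adjustment and the median was -0.47, or -0.18 with 1 higher and 3 lower when the length trend was removed. The median was -0.24 without siR_Ctrl + IFN-γ replicate 2. Gchfr, with the largest interaction of the list under the naming rule, gave -0.66 (-1.6 to 0.29). With the length trend removed it gave -0.08 (-0.52 to 0.37). Members picked after their values were seen lay on both sides. Gch1, the first enzyme of tetrahydrobiopterin synthesis, gave -0.63 (-1.12 to -0.13), and the arginine transporters Slc7a1 and Slc7a2 gave 0.45 (-0.30 to 1.20) and 0.48 (-0.47 to 1.43).

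**Figure D5:**
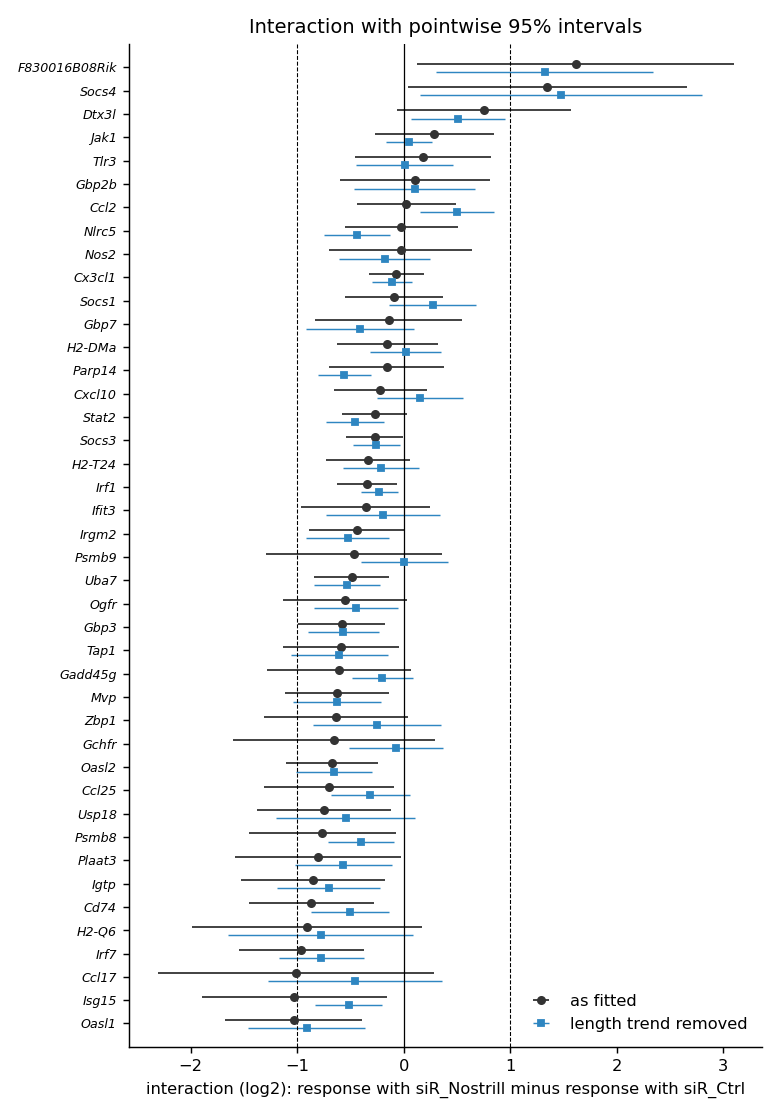
Interaction (log2 units, horizontal) of named genes of the interferon lists and of the RT-PCR list, with pointwise 95% intervals, as fitted (black circles) and with the length trend removed (blue squares). Dashed lines mark -1 and 1. Nos2 lies at -0.03, Igtp at -0.85 and Irf7 at -0.96.

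The 12 genes for which the study designed RT-PCR primers lay on one side. All 12 were below 0, as fitted and with the length trend removed, with medians of -0.62 and -0.43, and 7 were lower before adjustment. The study names Igtp, Nos2 and Gadd45g as selected from the genes lower in siR_Nostrill + IFN-γ in these libraries. The choice of the others may rest on the same libraries, so the direction is not taken as independent evidence. Mvp (chr7:126986860-127014594), the major vault protein, had 75.4, 102 and 105 CPM in siR_Ctrl and 101, 124 and 102 in siR_Nostrill, and 139, 182 and 132 against 101, 118 and 121 with IFN-γ. IFN-γ left it in the same range with siR_Nostrill, and its interaction was -0.63 (-1.11 to -0.14). Plaat3, a phospholipid-modifying enzyme, gave -0.80 (-1.58 to -0.03), and Ogfr, the opioid growth factor receptor, -0.55 (-1.13 to 0.03). Gadd45g, a stress-induced growth arrest gene, gave -0.61 (-1.28 to 0.07) as fitted and -0.20 (-0.48 to 0.08) with the length trend removed. Ccl17, a ligand of CCR4, gave -1.01 (-2.31 to 0.28), too wide for a loss or its absence to be told apart. Mt3 was under 10 reads in some group and had 0.26 to 0.46 CPM at rest in both groups, and with IFN-γ 0.79 to 1.45 in siR_Ctrl cells and 0.16 to 0.49 in siR_Nostrill cells.

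Outside the interferon lists, the estimates for genes of cholesterol synthesis and uptake lay mostly on one side. Of 21 tested, 18 lay below 0 and 9 were lower before adjustment, with a median of -0.38, or -0.23 without siR_Ctrl + IFN-γ replicate 3. With the length trend removed 19 lay below 0 and 13 were lower, with a median of -0.43. The median response was 0.49 with siR_Ctrl and 0.09 with siR_Nostrill, and the median resting difference was 0.42. Members picked after their values were seen show the pattern. Insig1, which retains the SREBP activators in the ER, had 75.2, 65.5 and 78.6 CPM in siR_Ctrl, 77.3, 89.4 and 116 in siR_Ctrl + IFN-γ, 127, 120 and 127 in siR_Nostrill and 87.9, 109 and 121 in siR_Nostrill + IFN-γ. Cyp51, a demethylase of lanosterol, had 95.8, 84.6 and 102, then 124, 135 and 154, then 133, 133 and 125, and last 130, 149 and 149 CPM in the same order. Resting siR_Nostrill levels lay above those of treated siR_Ctrl cells in Insig1 and overlapped with them in Cyp51. Fdps, which makes farnesyl diphosphate, gave -1.03 (-1.81 to -0.25), Insig1 -0.60 (-1.07 to -0.13) and Cyp51 -0.42 (-0.74 to -0.10). None passed after adjustment.

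The direction of the ribosomal proteins was less uniform with the length trend removed. All 65 tested lay below 0, with a median of -0.60, while 5 were lower before adjustment. The median was -0.33 without siR_Ctrl + IFN-γ replicate 2 and -0.38 without siR_Ctrl replicate 1. Their median effective length was 498 bases, and with the length trend removed the median was -0.07 with 42 of 65 below 0, 16 lower and 2 higher before adjustment (24.6% and 3.08%). The library scores spanned -0.55 to 0.44 in siR_Ctrl alone. The 61 respiratory chain subunits went from -0.48 to -0.08 in the same way, and to -0.25 and -0.29 without the same libraries in turn. The 4 Gadd45 stress genes went from -0.56 to -0.20.

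Most intervals of the proliferation, autophagy, caspase and NF-kB lists lay within 1 unit. All 33 proliferation genes had the whole interval within 1 unit, with a median of 0.02, and so had 34 of 37 autophagy genes, with a median of -0.06. These medians were 0.03 and -0.08 without the length trend, and 6 autophagy genes were lower before adjustment, against 2 as fitted. The 13 caspases, gasdermins and necroptosis genes had a median of -0.00 with 13 of 13 within 1 unit, and the 11 NF-kB genes -0.10 with 10 of 11. Without the length trend the medians were -0.03 and 0.08, so that of the NF-kB genes turned, with 4 of 11 below 0 against 6 as fitted. As fitted, single libraries left out gave -0.20 to 0.05 for the NF-kB genes, -0.08 to 0.02 for the caspase list, -0.02 to 0.03 for the proliferation genes and -0.12 to -0.05 for the autophagy genes. Of 18 immediate-early and AP-1 factors, 14 had the whole interval within 1 unit, and 7 were lower and 2 higher before adjustment. The median was -0.16, or -0.08 without siR_Nostrill replicate 1, with 10 below 0. With the length trend removed 4 were lower and 5 higher, with a median of -0.04 and 9 below 0. Klf2 gave -0.72 (-1.24 to -0.19) as fitted and -0.52 (-1.10 to 0.06) with the length trend removed, and Fosl1 gave 0.35 (0.07 to 0.62). The 22 genes of the unfolded protein response had a median of -0.15, or -0.04 with the length trend removed. In both forms 4 of them (18.2%) were lower and 0 higher before adjustment. As fitted 17 of the 22 had the whole interval within 1 unit. The 13 dual-specificity phosphatases and Sprouty genes had a median of 0.15, and 0.08 to 0.24 with single libraries left out. It was 0.09 with the length trend removed, where 3 were higher before adjustment.

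The genes with the lowest p before adjustment were named for their order only, since each had an adjusted p of 0.43 in edgeR. Among those with a higher response, Mmachc (chr4:116702434-116708385), which processes vitamin B12, had 6.31, 6.21 and 6.05 CPM in siR_Ctrl and 5.31, 4.46 and 4.72 in siR_Ctrl + IFN-γ. It had 5.28, 5.11 and 5.24 in siR_Nostrill and 8.63, 7.30 and 7.28 in siR_Nostrill + IFN-γ. The 2 responses ran in opposite directions with no overlap within either pair, and the interaction was 0.93 (0.58 to 1.28). Bcl7a, a subunit of SWI/SNF complexes, gave 0.83 (0.42 to 1.23), the zinc finger gene Zfp961 0.64 (0.32 to 0.96), Srd5a3, a reductase of dolichol synthesis, 0.55 (0.26 to 0.84) and Slc14a1, a urea transporter, 1.01 (0.46 to 1.56).

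Among those with a lower response, Irf9 was described above. Sigirr, a negative regulator of IL-1 and Toll-like receptor signalling, had 2.10, 2.57 and 2.34 CPM in siR_Ctrl, 2.87, 3.36 and 2.78 in siR_Ctrl + IFN-γ, 3.58, 3.62 and 3.16 in siR_Nostrill and 2.09, 1.76 and 2.56 in siR_Nostrill + IFN-γ. Its levels moved up in one pair and down in the other, and the interaction was -1.05 (-1.57 to -0.53). Ccdc136 gave -0.79 (-1.17 to -0.42), Rilpl1, a ciliary trafficking protein, -0.56 (-0.86 to -0.27) and Gm10499 -0.72 (-1.09 to -0.34). With the length trend removed Gm10499 gave -0.37 (-0.75 to 0.01), while the intervals of Sigirr, Ccdc136 and Rilpl1 stayed below 0. Gm10499 lies in the MHC class I region, where reads of close copies can be shared.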

How the data were processed

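RNA of 12 IEC4.1 libraries in 4 labelled groups was analysed. By the study's methods, reads were cleaned with SOAPnuke and aligned by HISAT2 and Bowtie2 to the GRCm38.p6 assembly. The read counter is not stated there. The deposited expected counts (not normalized) were rounded to whole numbers, and the authors' FPKM and TPM served for marker levels and alternatives only. Counts were fitted with edgeR 4.0.16 in R 4.3.3 (quasi-likelihood, TMM, default filter on low counts, 12 libraries in one fit, 4 group means). Intervals are pointwise at 95%, from the coefficient, its standard error and a t quantile at 11.2 degrees of freedom, and are not adjusted for the number of genes. CPM values are TMM-normalised. The length trend was removed by lowess (span 0.3) per library. Alternatives were DESeq2 1.42.0, limma 3.58.1 on log2(FPKM + 1), log2(FPKM + 0.1) or voom weights, other size factors and filters, a covariate and each library left out.

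Named genes were the RT-PCR list, in each interferon list the 2 members with the largest average effect of IFN-γ and the one with the largest interaction (average log2 CPM above 1, at least 10 reads in each group), and the 5 lowest p in each direction. Some genes that met these rules, such as Ifit3, H2-T24 and H2-DMa, are not described above. Genes named outside these rules, such as Irgm1, Ifi47, Klf2, Fosl1, Herc6 and Trim25, were picked with their values known. The members, lists and rules were chosen with earlier results of these data known. Lists received no test. The analysis was tested on simulated data. Depth was 17824306 to 19093204 reads per library. RefSeq GRCm38.p6 entries were found for 14958 of the 15002 gene IDs. The siRNA sequences come from the study's supplement and the promoter windows from RefSeq. A named gene is not reported here.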

Additional observations from a re-analysis of the deposited data

Results flagged for a closer look

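Among the genes named above, 8 had responses that ran in opposite directions, with every library of each pair clear of its counterpart: Mmachc (interaction 0.927), Bcl7a (0.825), Zfp961 (0.637), Srd5a3 (0.551), Ccdc136 (-0.794), Sigirr (-1.051), Ptpn6 (-0.585) and Gch1 (-0.626). The difference of responses was tested for each in edgeR, and each had an adjusted p of 0.43, so none passed. The first 6 were named because their p before adjustment was lowest, and Ptpn6 and Gch1 after their values were seen, so their shape is a description. The share of all 11900 tested genes with this shape is not given here, so no excess can be read from their number. Without single libraries the estimate of Bcl7a was 0.68 to 0.92 and that of Sigirr -1.21 to -0.93.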

How the results depend on the processing

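No gene passed for the interaction under the alternatives run on all 12 libraries (0 genes, and apart from the length trend at most 1663 before adjustment), except that the covariate (ratio of TPM to FPKM) called 1 gene, Gm21451, which had reads in 4 of the 12 libraries. Leaving out single libraries also gave 0 genes. Before adjustment the count moved from 1277 to 2267 with the length trend removed, and ranged from 541 (without siR_Nostrill replicate 2) to 2574 (without siR_Ctrl + IFN-γ replicate 3). It was also more than 1.5 times lower without siR_Ctrl + IFN-γ replicate 2 (558), siR_Ctrl replicate 1 (618) or siR_Nostrill + IFN-γ replicate 1 (654) or 2 (753), and higher without siR_Ctrl replicate 2 (2338). With the length trend removed and single libraries left out, a setting chosen after seeing the data, 6 genes passed without siR_Nostrill replicate 1 and 1 without siR_Ctrl replicate 3.

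Genes with the interval within 1 unit numbered 7228 to 9396 without single libraries. The average effect of IFN-γ called 1096 genes, 3611 with the covariate, 2386 with the length trend removed, and 883 to 1347 without single libraries. The median interaction of the 309 raised genes was -0.10, 0.0011 with limma on log2(FPKM + 1), -0.0119 with log2(FPKM + 0.1), where the median of all genes was 0.07 and 0.09, and -0.176 to -0.0643 without single libraries. The cause was not tested. Same-numbered deviations had correlations of -0.49 to 0.73 over 18 pairs, and other-numbered ones -0.81 to 0.77 over 36. Correlations above 0.1 were found in 8 of the 18 and 14 of the 36. Because these deviations also followed gene length, a culture or day shared by replicate number cannot be told from them. With the replicate block 0 genes passed, with 1663 before adjustment, 8324 within 1 unit, 1108 called for the average effect and a median of -0.09.

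A mean of at least 50 reads, also added after seeing the data, left 1153 before adjustment. Over the 11 alternatives on all libraries, the medians of the antiviral (-0.65 to -0.09), MHC class I (-0.40 to -0.20), IRF (-0.39 to -0.23) and cholesterol (-0.43 to -0.23) lists stayed below 0, and that of the feedback inhibitors (0.08 to 0.27) above it. The NF-kB median changed sign in 3 alternatives, those of the guanylate-binding proteins, receptor and STAT genes, sensors, other chemokines, caspases and autophagy genes in 2 each, and those of MHC class II, PARPs, immunity-related GTPases, ribosomal proteins and respiratory chain subunits in 1 each. Margins were widest for genes with few reads.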

Other observations

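The genes that IFN-γ lowered were not described above as a group, although a few are members of lists given there. On average over both siRNAs, 76 genes fell by more than 0.5 log2 units at an adjusted p of 0.05 in edgeR. Their median response was -0.68 with siR_Ctrl and -0.70 with siR_Nostrill. The median interaction was -0.06, with 40 of 76 below 0, 5 higher and 6 lower before adjustment, and it was -0.02 with the length trend removed and -0.12 to -0.02 with single libraries left out. For 42 of the 76 the whole interval lay within 1 unit. The 10 genes that the study named for infected cells gave a median interaction of -0.35, with 10 of 10 below 0 and a median resting difference of 0.46, and -0.47 with 9 of 10 below 0 when the length trend was removed. They overlap with the interferon lists and were named by the study.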
